A study of Homo sapiens with 4 samples.

Results

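The genes of cyclic AMP (cAMP) signalling examined here were the stimulatory G protein α subunit GNAS, the adenylyl cyclases (ADCY), the subunits of protein kinase A (PKA), the A-kinase anchoring proteins named AKAP with a number, the cyclic nucleotide phosphodiesterases (PDE) and the transcription factors CREB1 and CREM. They were chosen by gene symbol alone, from probe sets whose platform annotation names exactly 1 gene. A probe set is a group of short probes for 1 transcript. The rule took 176 probe sets of 51 genes, out of 40914 probe sets of 19774 genes. GNAS had 13 probe sets, the 10 ADCY genes had 22, the 7 PKA subunit genes had 18, the 14 AKAP genes had 44, the 17 PDE genes had 66, and CREB1 and CREM together had 13. ATF1 and PDE1A, which the rule also names, are left out of what follows and were not analysed here.

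The cells were DU145, an established, androgen-insensitive prostate cancer line. RNA was measured on 4 arrays, 2 of cells infected with lentivirus carrying an shRNA against DCUN1D1 (DU145-DCUN1D1-KD, the knockdown) and 2 of cells infected with lentivirus carrying an shRNA against GFP (DU145-GFP, the control). The records call the samples of each group biological duplicates, describe both groups as stably transduced and grown for 16 h in DMEM, list DMSO without saying how it was used, and give 1 µg of total RNA per labelling. The methods give a longer culture after infection than the records do, and this difference is not resolved here. They used different shRNAs against DCUN1D1, and neither source tells which of them each knockdown array carried. The comparison asked which transcripts differed when DCUN1D1, a ligase component of the neddylation pathway, was knocked down.

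In the cAMP pathway, a receptor coupled to Gs activates adenylyl cyclase, which makes cAMP from ATP. Binding of cAMP to the regulatory subunits of PKA frees its catalytic subunits, AKAPs hold the kinase at particular places in the cell, and phosphodiesterases end the signal by hydrolysing the cyclic nucleotide. PKA phosphorylates CREB, which binds the cAMP response element (CRE) in target promoters, and cAMP signalling in prostate cells is known for its links to secretion and to neuroendocrine features.

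The full palindromic CRE, TGACGTCA, was searched on both strands of the RefSeq promoters (GRCh38.p14), each of which runs from 250 bases before to 50 bases after an annotated start site. Of the 51 genes, 43 had such an entry, and 4 of these (9.30%) held the element, against 614 of all 27305 genes with an entry (2.25%). Counted by promoter, it was in 6 of 117 (5.13%), against 649 of all 35116 (1.85%). The half-site TGACG, which also lies within the full element, was in 32 of the 117 promoters (27.4%), against 24.6% of all promoters, and in 20 of the 43 genes (46.5%), against 28.4% of all genes. These genes have more annotated promoters each than genes in general. The 4 genes code for a CRE-binding factor, 2 phosphodiesterases and a PKA regulatory subunit. Their elements are shown because they place the motif bound by the pathway's own factor beside genes of that pathway. The brightest probe set of PDE4A had the largest negative log2 fold change of all the cAMP probe sets (-1.95). Those of CREM, PRKAR1A and PDE7B had positive values (0.72, 0.76 and 0.37). A part of the element in these values was not tested. Each line gives 30 bases of the plus strand, 5′ to 3′, with the element in capitals.
CREM, chr10:35195841-35195870: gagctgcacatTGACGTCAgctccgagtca
PDE4A, chr19:10416759-10416788: cgtcagtccgcTGACGTCAcgccccaggag
PDE7B, chr6:135851535-135851564: actaaacccttTGACGTCActcttgaaatg
PRKAR1A, chr17:68512370-68512399: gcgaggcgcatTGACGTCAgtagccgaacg
The element starts 3 bases before an annotated start site of PDE4A and 155 bases before that of PDE7B, and 2 bases after those of CREM and PRKAR1A. A match of letters is a description of the promoter and not a measured binding site.

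The signal of most probe sets was low. The array's nonspecific control of 20 G or C bases read 2.48 and 2.51 (log2) on the knockdown arrays and 2.97 and 3.30 on the control arrays, and a probe set at or under it on its own array is called here not above the nonspecific control. On this measure 18.2% and 14.2% of the cAMP probe sets were above it on the knockdown arrays, and 10.8% and 8.52% on the control arrays. Over all probe sets the shares were 18.7% and 14.5% on the knockdown arrays and 8.97% and 6.07% on the control arrays. All 6 probe sets of the targeted gene DCUN1D1 lay under it on every array. The brightest of them (222678_PM_s_at) read 1.60 and 1.45 in the knockdown and 2.55 and 1.99 in the control. Its log2 difference of -0.75, with a standard error (SE) of 0.26, did not pass the fold bound defined below. The others gave log2 differences between -0.47 and 0.12, with 218583_PM_s_at and 242428_PM_at positive, and none passed that bound. The study's paper reports lower DCUN1D1 mRNA by real-time PCR and lower protein by Western blot in infected DU145 cells. The array values, all under the nonspecific control, do not measure the size of that reduction. The GAPDH 3′ control probe set read 10.82 on knockdown replicate 1, against 5.09 on knockdown replicate 2 and 5.02 and 4.68 on the control arrays. Of 5 epithelial markers, KRT8 was above the nonspecific control on all 4 arrays (3.70 and 3.33 in the knockdown, 3.25 and 3.73 in the control), KRT18 was above it only on knockdown replicate 1 (7.62), and CDH1, EPCAM and KRT19 were above it on none. None of the 3 leukocyte and 3 endothelial markers measured was above it on any array. Of 4 fibroblast markers, COL1A1 was above it on all 4 arrays and PDGFRB was past the fold bound downwards (-1.01). Of 3 measured luminal prostate markers, listed as low in DU145, TMPRSS2 was above the nonspecific control on 3 arrays. TMPRSS2 read 3.22 and 3.11 in the knockdown and 3.72 and 2.90 in the control. KLK3 was above the nonspecific control on 1 array and KLK2 on none, and none of these 3 passed the fold bound.

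The pathway's probe sets moved in both directions. Over the 176 probe sets the median log2 fold change (knockdown minus control) was -0.01, the same as over all probe sets, with 86 positive and 90 negative values. A probe set was called past the fold bound when the 90% confidence interval of its fold change, computed by limma with a moderated standard error, ended more than 1.2-fold away from no change. Of the cAMP probe sets, 2 were higher past this bound (1.14%), where the background over all probe sets was 1.18%. Past the bound downwards were 7 (3.98%), where the background was 2.38%. Both knockdown arrays read above both control arrays for 36 probe sets (20.5%, background 17.9%) and below them for 39 (22.2%, background 25.0%), and the groups overlapped for the remaining 101. The Benjamini-Hochberg adjusted p of limma called 0 of the 176 and 0 of the 40914, and the smallest adjusted p was 0.62 in both. At an unadjusted limma p under 0.05 there were 1 higher and 9 lower cAMP probe sets (0.568% and 5.11%), where the background was 2.30% and 5.25%. The number of calls moved with single arrays, over all probe sets as well. Without control replicate 2, 0 were higher and 2 lower (0% and 1.14%, against 0.115% and 1.23% of all). Without knockdown replicate 2, 11 were higher and 4 lower (6.25% and 2.27%, against 9.80% and 2.13%). Without knockdown replicate 1, 5 were higher and 5 lower (2.84% of the cAMP probe sets in each direction, against 2.94% and 2.15%). An exact permutation test of 2 arrays against 2 cannot give a two-sided p below 0.333, and the p-values measure only the spread between these arrays. In RNA of whole cultures, fewer cells of a kind and less RNA per cell cannot be told apart.

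**Figure D1:**
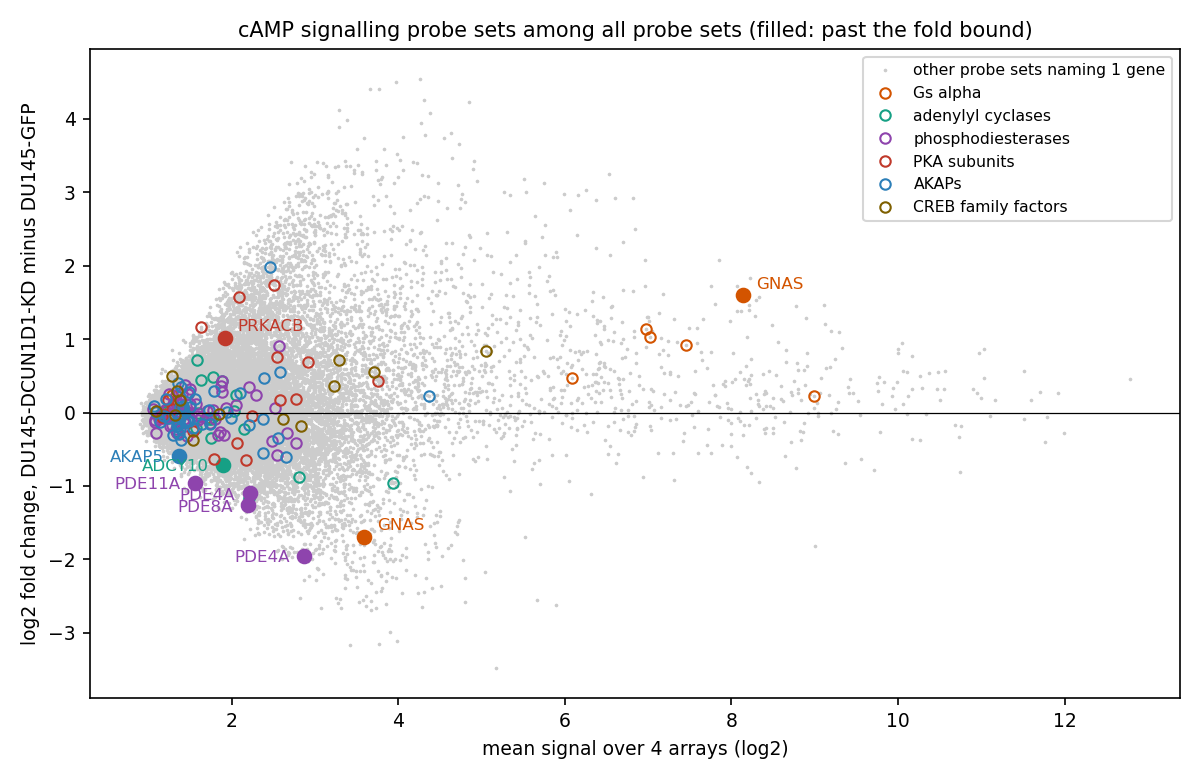
Each circle is 1 cAMP signalling probe set, coloured by role, over grey points for all other probe sets that name 1 gene, with the mean signal of the 4 arrays (log2) on the x axis and the log2 fold change of DU145-DCUN1D1-KD minus DU145-GFP on the y axis. The 9 filled circles are past the fold bound, 2 above 0 (PRKACB and GNAS) and 7 below, and most circles lie under a mean signal of 3.

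GNAS was the brightest of these genes in the sense that 6 of its 13 probe sets were above the nonspecific control on all 4 arrays, out of 10 such probe sets in the whole pathway. GNAS lies on chromosome 20 and encodes Gsα, the subunit that couples receptors to adenylyl cyclase. All 6 carry the suffix x, which on these arrays marks probes that may also bind transcripts of other genes. The probe set 214548_PM_x_at read 9.03 and 8.86 in the knockdown and 8.11 and 6.57 in the control. Both knockdown arrays were above both control arrays, and control replicate 2 was the lowest. The log2 fold change was 1.60 (SE 0.63, 3.04-fold), past the fold bound with a limma adjusted p of 0.62. It was no longer past the bound without control replicate 2 (0.84), without knockdown replicate 1 (1.52), after quantile normalization (0.94) or with a replicate block.

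The other 5 bright GNAS probe sets also had positive log2 fold changes, none of them past the bound, and the sign of 2 of them turned under quantile normalization. For 200981_PM_x_at the signal was 7.73 and 7.35 in the knockdown and 6.91 and 5.90 in the control, a log2 fold change of 1.13 (SE 0.63). For 212273_PM_x_at it was 8.02 and 7.06 in the knockdown and 6.97 and 6.05 in the control, a log2 fold change of 1.03 (SE 0.67). For 200780_PM_x_at it was 8.07 and 7.76 in the knockdown and 7.20 and 6.79 in the control, a log2 fold change of 0.93 (SE 0.50). The groups did not overlap on these 3 probe sets. They did on 211858_PM_x_at, with 6.41 and 6.23 in the knockdown and 6.26 and 5.43 in the control (0.47), and on 217673_PM_x_at, with 9.04 and 9.17 in the knockdown and 9.23 and 8.54 in the control (0.22). After quantile normalization the log2 fold changes were 0.94 for 214548_PM_x_at, 0.22, 0.17 and 0.11 for 200981_PM_x_at, 212273_PM_x_at and 200780_PM_x_at, and -0.43 and -0.39 for 211858_PM_x_at and 217673_PM_x_at. The direction of the bright GNAS probe sets as a group is therefore not settled by these values. The level that the brightest 1% of an array's probe sets exceed, which this normalization makes equal, was 7.33 and 6.18 in the knockdown and 6.13 and 5.58 in the control.

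A seventh GNAS probe set, 217058_PM_at, went the other way. It read 3.25 and 2.24 in the knockdown and 4.02 and 4.86 in the control, above the nonspecific control on knockdown replicate 1 and on both control arrays. The log2 fold change was -1.69 (SE 0.59), past the bound, and the call was lost without control replicate 2 (-1.27), without knockdown replicate 2 (-1.18) and with a replicate block. The remaining 6 GNAS probe sets lay under the nonspecific control on every array, with log2 fold changes between -0.07 and 0.23. GNAS is a locus with several promoters and first exons, and which of its transcripts each probe set reads was not analysed here.

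**Figure D2:**
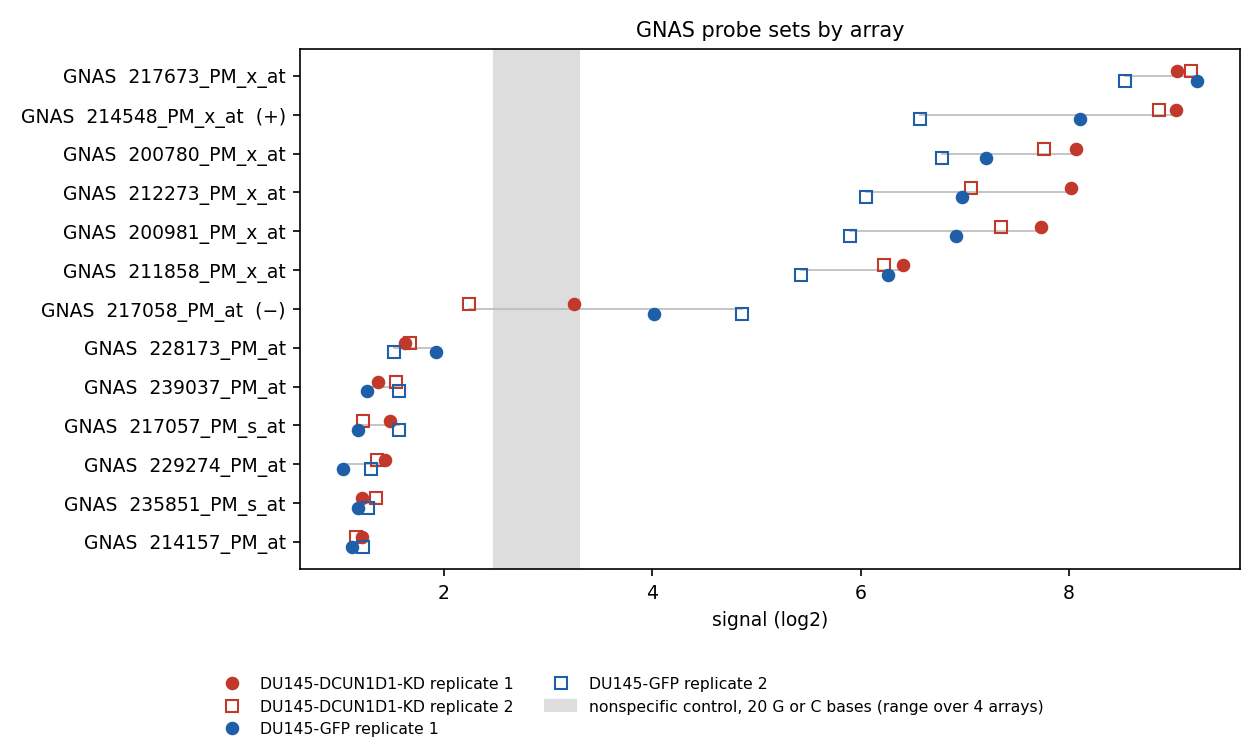
The signal (log2) of the 13 GNAS probe sets on each array, DU145-DCUN1D1-KD in red and DU145-GFP in blue, with the range of the nonspecific control over the 4 arrays in grey and (+) or (−) marking a probe set past the fold bound. Of the 6 probe sets wholly right of the grey band, 4 have both red points right of both blue points, 217058_PM_at has the opposite order, and 6 lie left of the band.

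Of the adenylyl cyclases, ADCY3 was the only one above the nonspecific control on all 4 arrays, on 1 of its 2 probe sets. The other, 209321_PM_s_at, was above that control on no array (log2 fold change -0.26). ADCY3 is a membrane-bound cyclase first known from olfactory cilia. Its brightest probe set, 209320_PM_at, read 3.19 and 3.73 in the knockdown and 3.48 and 5.35 in the control, so that the groups overlapped and control replicate 2 stood apart. The log2 fold change of -0.96 (SE 0.77) was -0.02 without that array. ADCY9, a widely expressed cyclase, read 2.32 and 2.42 in the knockdown and 3.15 and 3.36 in the control on 215400_PM_x_at. Only the control arrays were above the nonspecific control, which read 2.97 and 3.30 on them and 2.48 and 2.51 on the knockdown arrays. The log2 fold change was -0.88 (SE 0.32, limma adjusted p 0.62), just short of the fold bound. Set against the nonspecific control of the knockdown arrays, the mean of the DU145-GFP arrays was 1.69-fold higher. That fold is not a lower limit and does not take off the higher nonspecific control of the DU145-GFP arrays. The other ADCY9 probe sets had log2 fold changes of 0.44 and 0.72, and 204497_PM_at was above the nonspecific control on knockdown replicate 1 alone.

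ADCY1, a calcium- and calmodulin-stimulated cyclase of neurons, read 1.59 and 1.65 in the knockdown and 2.15 and 3.42 in the control (215348_PM_at, log2 fold change -1.16, SE 0.46). It was above the nonspecific control on control replicate 2 alone and did not pass the bound. ADCY10, the soluble cyclase that responds to bicarbonate, was past the bound downwards, with 1.61 and 1.48 in the knockdown and 2.30 and 2.21 in the control (214547_PM_at, log2 fold change -0.71, SE 0.19). All of these values were under the nonspecific control, so that no fold is given, and the call was lost with a replicate block and without any 1 of control replicate 1, control replicate 2 and knockdown replicate 2. The other ADCY10 probe set, 217305_PM_s_at, gave -0.03. The brightest probe sets of the other 6 cyclases were under the nonspecific control on every array too, with log2 fold changes between -0.22 (ADCY7) and 0.48 (ADCY2). In all, 18 of the 22 cyclase probe sets (81.8%, against 76.1% of all) were above the nonspecific control on no array. Past the bound were 0 upwards (background 1.18%) and 1 downwards (4.55%, background 2.38%).

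Among the PKA catalytic subunits, PRKACB was past the fold bound upwards. PRKACB encodes the Cβ subunit. Its brightest probe set, 202741_PM_at, read 2.59 and 2.27 in the knockdown and 1.56 and 1.26 in the control, and only knockdown replicate 1 was above the nonspecific control. The groups did not overlap, and the log2 fold change was 1.02 (SE 0.23, limma adjusted p 0.62). It was 0.87 and not past the bound without control replicate 2. The other PRKACB probe sets gave 0.04 and -0.07, both under the nonspecific control on all arrays.

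PRKACA, which encodes the Cα subunit found in most tissues, read 2.60 and 3.13 in the knockdown and 2.93 and 2.42 in the control on its brightest probe set, a log2 fold change of 0.19 (SE 0.38) with overlapping groups. PRKACG, a subunit gene known from testis, read 1.51 and 1.44 in the knockdown and 1.87 and 2.34 in the control (log2 fold change -0.63, SE 0.23), all under the nonspecific control. Neither passed the bound.

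The regulatory subunit genes had no probe set past the bound, and their positive values followed 1 array. PRKAR1A encodes RIα, the regulatory subunit whose loss of function causes Carney complex, and its promoter holds the CRE shown above. Probe set 200605_PM_s_at read 4.67 and 2.10 in the knockdown and 1.75 and 1.54 in the control. Probe set 200603_PM_at read 4.44 and 1.32 in the knockdown and 1.12 and 1.49 in the control. The brightest, 200604_PM_s_at, read 3.63 and 2.22 in the knockdown and 2.44 and 1.90 in the control. On all 3 probe sets knockdown replicate 1 was the highest and the only array above the nonspecific control. The log2 fold changes of 1.74, 1.57 and 0.76, in the same order, were 0.45, 0.01 and 0.06 without it. The fourth, 242482_PM_at, gave -0.03. This array also had the high GAPDH 3′ and KRT18 signals given above, and their part in these values was not tested.

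PRKAR2A, the gene of RIIα, which is the form that most AKAPs bind, was the only PKA gene above the nonspecific control on all 4 arrays. On 225011_PM_at it read 4.29 and 3.65 in the knockdown and 3.55 and 3.52 in the control, a log2 fold change of 0.44 (SE 0.49), which was 0.12 without knockdown replicate 1. On 213052_PM_at it read 3.79 and 2.72 in the knockdown and 2.47 and 2.67 in the control (0.69, and 0.15 without knockdown replicate 1). The other 3 probe sets gave 1.16, 0.16 and -0.64, so the 5 probe sets of this gene did not share a direction. PRKAR1B read 2.14 and 2.29 in the knockdown and 2.16 and 2.38 in the control (log2 fold change -0.05). PRKAR2B read 1.43 and 1.21 in the knockdown and 1.04 and 1.25 in the control (0.17). Both lay under the nonspecific control throughout.

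**Figure D3:**
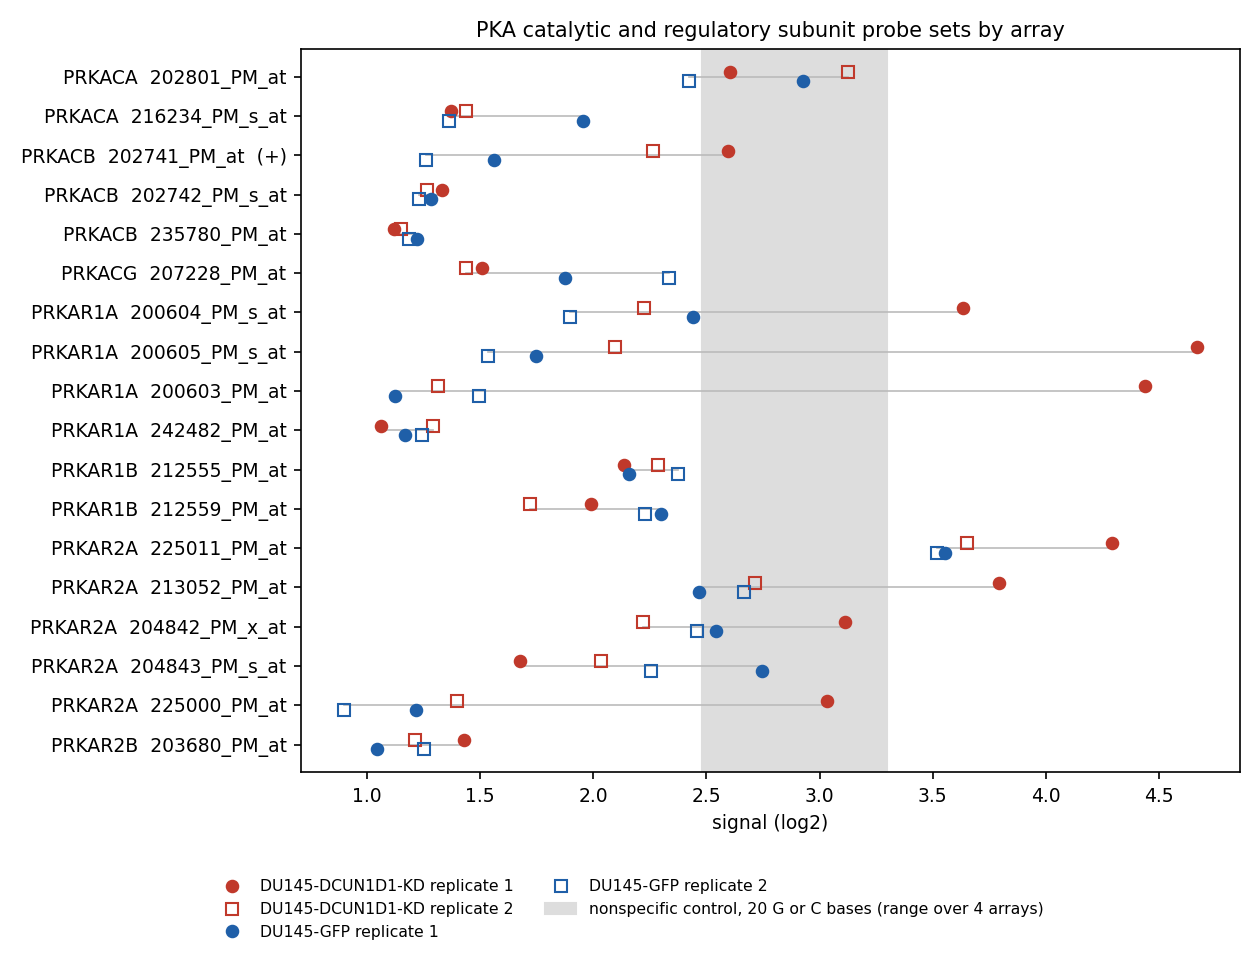
The signal (log2) of the 18 PKA subunit probe sets on each array, DU145-DCUN1D1-KD in red and DU145-GFP in blue, catalytic subunits above regulatory ones, with the nonspecific control's range in grey and (+) marking the probe set past the fold bound. On 3 PRKAR1A probe sets the filled red circle of knockdown replicate 1 lies between 3.63 and 4.67, right of all other points of its row.

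The AKAPs gave 0 probe sets past the bound upwards and 1 downwards, of 44 (0% and 2.27%, background 1.18% and 2.38%). AKAP5, which anchors PKA together with calcineurin and protein kinase C at the membrane, read 1.04 and 1.10 in the knockdown and 1.53 and 1.80 in the control (230846_PM_at, log2 fold change -0.59, SE 0.14). All 4 values were under the nonspecific control. Among the fits that leave out an array, the call was kept only without control replicate 1. The other AKAP5 probe set, 207800_PM_at, gave -0.04. AKAP12, also called gravin, a scaffold of PKA and protein kinase C with tumour suppressor properties, read 5.30 and 1.60 in the knockdown and 1.38 and 1.56 in the control (210517_PM_s_at). Its log2 fold change of 1.98 (SE 1.19) was the largest positive value of the 176 probe sets and came from knockdown replicate 1, without which it was 0.13. Across the cAMP genes, 3 probe sets stood more than 2 log2 units above the other 3 arrays on that array alone, this one and 2 of PRKAR1A (1.70%, against 3.46% of all probe sets).

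AKAP13, an anchoring protein that is also an exchange factor for RHOA, was the only AKAP above the nonspecific control on all 4 arrays. This held for 1 of its 10 probe sets, which carries the suffix x. Above the nonspecific control on no array were 8 of the 10. Probe set 209534_PM_x_at read 4.15 and 4.81 in the knockdown and 4.90 and 3.60 in the control, a log2 fold change of 0.23 (SE 0.69) with overlapping groups. AKAP8, a nuclear anchoring protein, read 2.47 and 2.23 in the knockdown and 3.27 and 2.63 in the control (203848_PM_at, -0.60, SE 0.36). AKAP1, which anchors PKA at mitochondria, read 2.57 and 3.15 in the knockdown and 2.08 and 2.54 in the control (201674_PM_s_at, 0.55, SE 0.36). The groups did not overlap for AKAP8 or AKAP1, and neither passed the bound. The brightest probe sets of the other 9 AKAP genes had log2 fold changes between -0.38 (AKAP14) and 0.34 (AKAP11) and were above the nonspecific control on no array.

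**Figure D4:**
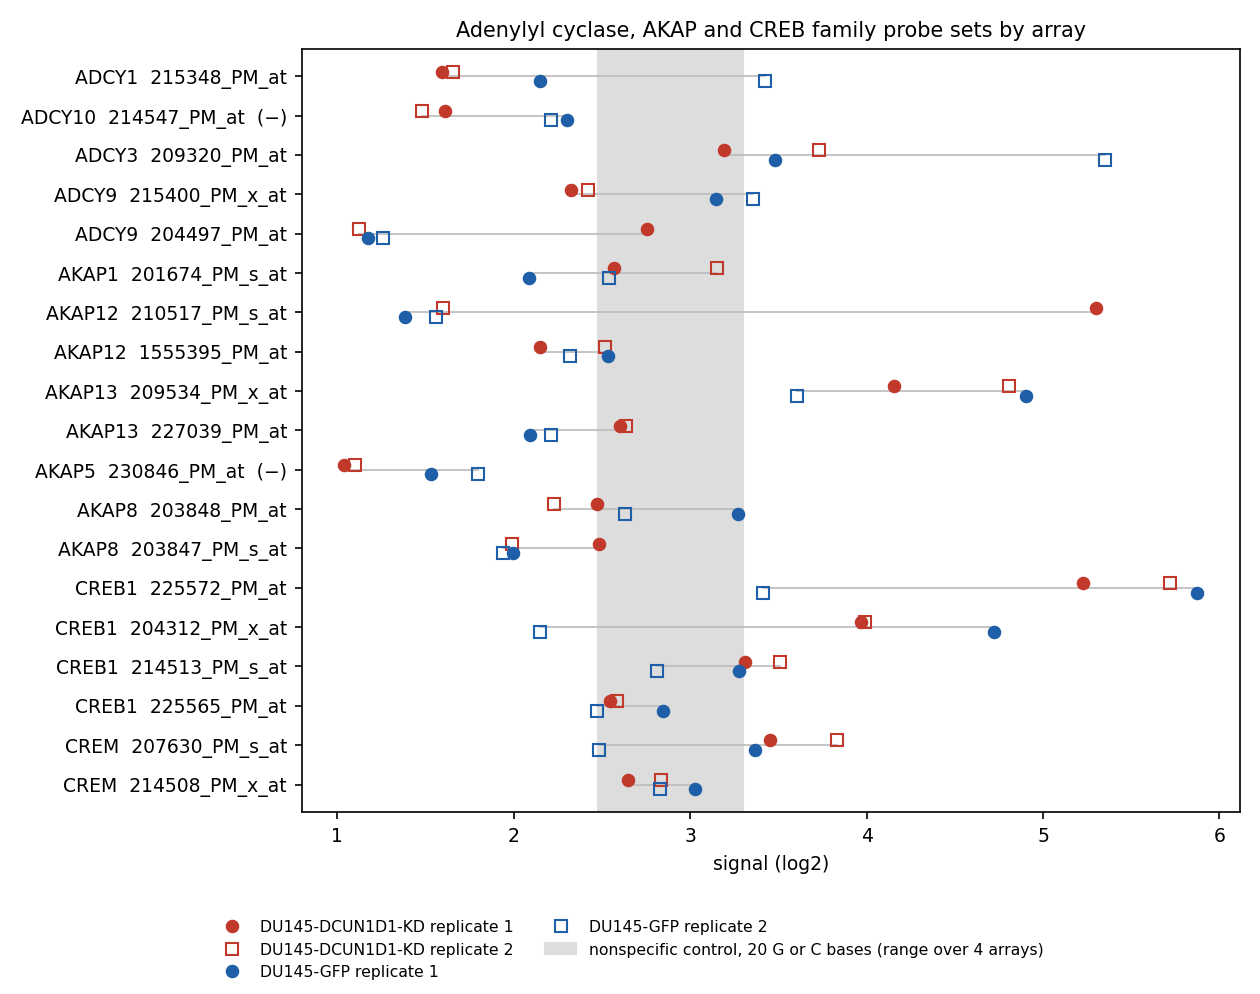
The signal (log2) on each array of the adenylyl cyclase, AKAP, CREB1 and CREM probe sets that were above the nonspecific control on at least 1 array or past the fold bound, DU145-DCUN1D1-KD in red and DU145-GFP in blue, with the nonspecific control's range in grey and (−) marking a probe set past the bound downwards. AKAP12 210517_PM_s_at is high on knockdown replicate 1 alone (5.30), while ADCY3 is high and CREB1 225572_PM_at low on control replicate 2 (5.35 and 3.41).

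The phosphodiesterases held 4 of the 7 downward calls, on PDE4A, PDE8A and PDE11A, and no upward call among 66 of the 176 probe sets. The downward calls made up 6.06% of them, where the background was 2.38%, and the background of upward calls was 1.18%. Of the 66, 56 (84.8%, against 76.1% of all) were above the nonspecific control on no array. None was above it on all 4, against 4.39% of all. PDE4A, on chromosome 19, encodes a cAMP-specific phosphodiesterase of the family inhibited by rolipram and roflumilast. Its brightest probe set, 211901_PM_s_at, read 2.02 and 1.78 in the knockdown and 3.57 and 4.13 in the control. Both control arrays were above the nonspecific control and both knockdown arrays were under it. The log2 fold change was -1.95 (SE 0.37, limma adjusted p 0.62). It stayed between -2.26 and -1.67 when an array was left out or the arrays were normalized again, past the bound each time. The end of its confidence interval nearest to no change was 2.30-fold lower in the knockdown. Set against the nonspecific control of the knockdown arrays, the mean of the DU145-GFP arrays was 2.55-fold higher. That fold is not a lower limit and does not take off the higher nonspecific control of the DU145-GFP arrays (2.97 and 3.30).

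A further PDE4A probe set, 211591_PM_s_at, was also past the bound downwards, with 2.09 and 1.24 in the knockdown and 2.70 and 2.83 in the control (log2 fold change -1.10, SE 0.35), all under the nonspecific control. This call was lost without either control array and without knockdown replicate 2, where the log2 fold change was -0.68. The remaining 3 probe sets of this gene did not pass the bound. For 242435_PM_at the signal was 2.48 and 2.65 in the knockdown and 2.80 and 3.15 in the control (-0.41), and 211447_PM_s_at and 204735_PM_at gave 0.28 and 0.03. The 5 probe sets of PDE4A thus differed among themselves by more than 2 log2 units, and which transcript forms each reads was not analysed here. The other PDE4 genes did not pass the bound on any probe set. PDE4B read 1.23 and 1.44 in the knockdown and 1.25 and 1.42 in the control (0.00), PDE4C read 2.57 and 2.01 in the knockdown and 2.95 and 2.40 in the control (-0.38), and PDE4D read 2.41 and 2.64 in the knockdown and 2.69 and 2.92 in the control (-0.28). A test of PDE4A against the other PDE4 genes was not run.

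PDE8A, a cAMP-specific phosphodiesterase insensitive to the general inhibitor IBMX, read 1.53 and 1.59 in the knockdown and 2.18 and 3.47 in the control (239874_PM_at). Only control replicate 2 was above the nonspecific control. The log2 fold change was -1.26 (SE 0.46), and without that array it was -0.62 and no longer past the bound. The call was also lost without knockdown replicate 1 and among probe sets above the median signal. The other 3 PDE8A probe sets gave between -0.27 and 0.05. PDE11A, which hydrolyses both cAMP and cGMP and is known in prostate, was past the bound on 224223_PM_s_at, with 1.26 and 0.89 in the knockdown and 1.82 and 2.25 in the control (-0.96, SE 0.23). These values were under the nonspecific control, and the brightest PDE11A probe set gave 0.12.

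PDE7A, another cAMP-specific enzyme, had the largest positive value of the family on 223359_PM_s_at, with 2.11 and 3.93 in the knockdown and 2.15 and 2.09 in the control (0.90, SE 0.64). Only knockdown replicate 2 was high. PDE7B, whose promoter holds the CRE, read 1.48 and 1.78 in the knockdown and 1.36 and 1.16 in the control (0.37, SE 0.17), under the nonspecific control and not past the bound. PDE1B, which is activated by calcium and calmodulin, read 2.15 and 2.35 in the knockdown and 2.998 and 2.66 in the control (-0.58, SE 0.30). By substrate, the 34 probe sets of the cAMP-specific PDE4, PDE7 and PDE8 genes showed a median of -0.06 in log2 fold change. Of these, 3 were downward calls (8.82%). The 22 of the dual-specificity PDE1, PDE2, PDE3, PDE10 and PDE11 genes had a median of 0.00 and 1 downward call (4.55%). The 10 of the cGMP-specific PDE5 and PDE9 genes had -0.04 and 0 (0%). The background of downward calls was 2.38%.

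**Figure D5:**
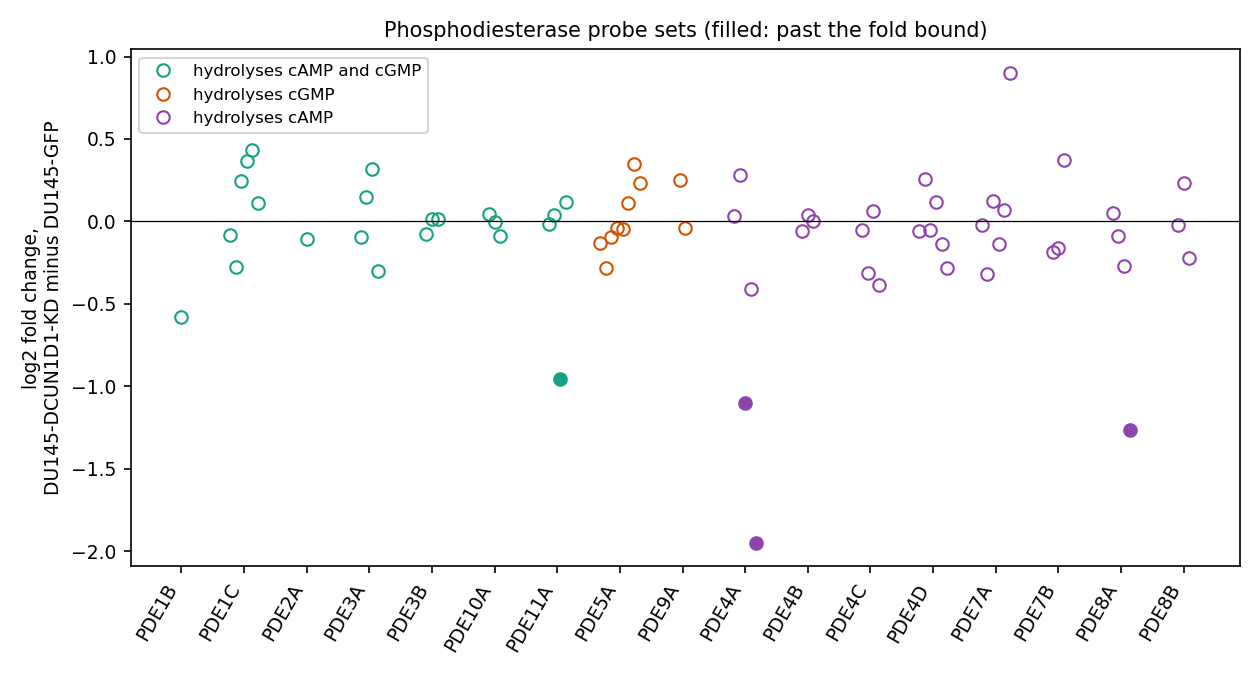
The log2 fold change (DU145-DCUN1D1-KD minus DU145-GFP) of each of the 66 phosphodiesterase probe sets by gene, ordered within a gene by mean signal and coloured by substrate, with probe sets past the fold bound filled. The 4 filled points are 1 of PDE11A, 2 of PDE4A and 1 of PDE8A, and all other probe sets lie between -0.58 and 0.90.

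CREB1 encodes the factor that PKA phosphorylates, and CREM encodes a related factor with activating and repressing forms. Neither gene had a probe set past the bound. CREB1 was above the nonspecific control on all 4 arrays on 225572_PM_at, with 5.23 and 5.72 in the knockdown and 5.87 and 3.41 in the control. The low value was control replicate 2 and the groups overlapped. The log2 fold change of 0.83 (SE 0.98) became -0.40 without that array, and likewise 0.55 on 204312_PM_x_at became -0.74. CREM read 3.45 and 3.83 in the knockdown and 3.36 and 2.48 in the control on 207630_PM_s_at (0.72, SE 0.49), and 0.28 was left without control replicate 2. The groups did not overlap, with knockdown replicate 1 and control replicate 1 close together. Over the 13 probe sets of both genes, both knockdown arrays were above both control arrays for 5 (38.5%, background 17.9%) and below them for 0 (background 25.0%), and 7 (53.8%, against 76.1% of all) were above the nonspecific control on no array.

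Of the 42 genes with several probe sets, 35 had log2 fold changes on both sides of 0. The share over all genes with several probe sets was not computed, so this count is not read as particular to the cAMP genes. For 30 of the 51 genes every probe set was under the nonspecific control on all 4 arrays, and 133 of the 176 probe sets (75.6%) were above it on none, against 76.1% of all probe sets. The 10 that were above it on all 4 (5.68%, against 4.39% of all) came from GNAS, AKAP13, CREB1, PRKAR2A and ADCY3. Their median log2 fold change was 0.65, and 0.08 after quantile normalization.

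Other genes of the pathway were taken from lists of Gs-coupled receptors, G protein α subunits, cAMP receptors, PKA inhibitor peptides, anchoring proteins with other names, CREB coactivators and CREB target genes, each gene by its brightest probe set. Of 60 genes listed 54 were measured, and 2 were past the bound upwards and 3 downwards, where 1.53% and 3.39% of all genes were past it on their brightest probe sets. SIK1, a kinase gene induced by CREB, read 3.36 and 3.04 in the knockdown and 5.05 and 5.87 in the control, above the nonspecific control on all 4 arrays (log2 fold change -2.25, SE 0.59, limma adjusted p 0.62). A near-identical copy of SIK1 is annotated in the human genome, so the signal may belong to either. AKAP8L, a nuclear relative of AKAP8, read 3.06 and 2.62 in the knockdown and 4.40 and 4.73 in the control (-1.73, SE 0.47). Both knockdown arrays were below both control arrays for these 2 genes. The third downward call was ADCYAP1R1, the receptor of the peptide PACAP, at -0.63 and under the nonspecific control throughout.

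The upward calls were POPDC3, a membrane protein that binds cAMP, with 3.20 and 2.77 in the knockdown and 1.95 and 1.81 in the control (1.11, SE 0.29), and RAB32, a small GTPase that anchors PKA at mitochondria, with 3.67 and 2.67 in the knockdown and 1.72 and 1.89 in the control (1.36, SE 0.41). On both genes the knockdown arrays were above the nonspecific control and the control arrays were not. The CREB targets were mixed, with 1 of 11 past the bound downwards, none upwards and a median of 0.07. DUSP1, a phosphatase gene among them, read 4.80 and 1.72 in the knockdown and 2.47 and 2.42 in the control (0.82). EZR, the gene of the anchoring protein ezrin, read 4.87 and 4.96 in the knockdown and 4.46 and 1.91 in the control (1.73, and 0.45 without control replicate 2). None of the other genes named next passed the bound. The receptors ADORA2B and MC1R had log2 fold changes of 0.98 and -0.65, and the G protein genes GNAI3 and GNAO1 had 0.94 and 0.93. ADORA2B became 0.03 and GNAI3 0.31 without knockdown replicate 1, and GNAO1 became 0.31 without knockdown replicate 2. The cAMP-binding channel gene HCN2 had -0.70, and the PKA inhibitors PKIB and PKIG had -0.55 and 0.22. The CREB coactivators CREBBP and CRTC3 had 1.10 and 0.62, and CREBBP became 0.50 without knockdown replicate 2. MC1R, HCN2, PKIB, PKIG and CRTC3 were above the nonspecific control on no array.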

How the data were processed

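RNA of 4 DU145 cultures was measured on single-channel Affymetrix arrays. The deposited table, as the authors made it, gives a log2 signal for each probe set on each array. The submitters' notes name Affymetrix Expression Console whereas dChip and a smoothing spline stand in the methods, so the algorithm behind the values is not settled here. The scale was taken as log2 from the range of the values. The table has no detection calls, and an array has no read depth: the number of arrays and the signal over the nonspecific control limit the precision. Of 54715 probe sets, 40914 name 1 gene, 864 name several, 12835 name none and 102 are controls. All 51 member genes matched RefSeq by gene ID.

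All 40914 probe sets were fitted with limma (version 3.58.1, R 4.3.3) with a variance trend and no block, and p-values were adjusted over all of them. The fold bound follows the rule in the methods (the 90% lower bound above 1.2-fold), with limma's standard error. The members and lists were chosen with earlier results of these data known. Named were DCUN1D1, each member probe set past the bound, each gene's brightest probe set (with array values for GNAS, PKA, CREB and PDE4 genes and those above the nonspecific control on all arrays), the 3 largest changes of the AKAP, ADCY and other PDE genes, and 2 genes per pathway list. Other probe sets, and ADCYAP1R1 and RAB32, were named after their values were seen, to complete a gene or a count. As alternatives, the arrays were quantile normalized or median centred, and the fit was repeated with a filter at the median signal, 1 probe set per gene, no variance trend, a replicate block, leaving out each array, the plain standard error, other thresholds, the methods' t-test and, chosen after seeing the data, a filter to probe sets above the nonspecific control on both arrays of a group. The fit was tested on simulated arrays with known changes.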

Additional observations from a re-analysis of the deposited data

Results flagged for a closer look

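A signal appeared in a probe set that the comparison left out because it names more than 1 gene. Probe set 226694_PM_at names AKAP2, an anchoring protein, together with the readthrough gene PALM2AKAP2. It read 5.41 and 1.73 (log2) in DU145-DCUN1D1-KD and 1.40 and 1.59 in DU145-GFP, a difference of group means of 2.07. Both knockdown arrays were above both control arrays, and only knockdown replicate 1 was above the nonspecific control. The other 3 probe sets that name AKAP2 with another gene had differences of 1.15, 0.84 and -0.34. The difference was not tested.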

How the results depend on the processing

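For the upward calls, 2 cAMP probe sets in the fit as reported, the count was 1 after quantile normalization, with 1 probe set per gene, at limma's unadjusted p under 0.05 and with the added filter on the nonspecific control. It was 0 by limma's adjusted p and by the methods' t-test after Benjamini-Hochberg adjustment. Leaving out each array gave 0 to 11, while the share of all probe sets past the bound ran between 0.115% and 9.80%. For the downward calls, 7 as reported, the count was 3 with the plain standard error, with the added filter and by the methods' t-test, and 0 by limma's adjusted p and by that t-test after adjustment. Leaving out each array gave 2 to 8. Centring, the filter at the median signal and the fit without a variance trend kept both counts within 1.5 times. With a replicate block the counts were 2 and 6, of which 1 and 5 were among the calls as reported: GNAS lost its call in each direction and ADCY10 its downward call. The replicate numbers share no stated origin, and the deviations of arrays with the same number correlated at -0.04 over all probe sets, so the numbers were not taken as pairs. Of the values of 29 named probe sets under these settings, 197 kept their side of the bound. Where the probe set was not called, these values moved by less than the larger spread within a group, and some changed sign. On CREB1 225572_PM_at, for instance, 0.83 became -0.40 without control replicate 2. Another 21 lost the bound, 8 gained it, 2 moved by more than that spread and none of the called ones changed sign. Without knockdown replicate 2, limma's adjusted p called 2602 of all 40914 probe sets, and 0 without any other single array. In each of these fits the lone array is assumed to vary like the other group, and the cause of the difference was not tested. Both the number of arrays and the signal limit these results: 75.6% of the cAMP probe sets were above the nonspecific control on no array.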
